A study of Arabidopsis thaliana with 18 samples.

Results

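KEU (AT1G12360) and SEC10 (AT5G12370) encode proteins that act late in secretion, and their transcripts were followed over 18 ATH1 arrays of the Arabidopsis thaliana accession Van-0. The platform annotation assigned 1 probe set to KEU alone (259512_at) and 1 to SEC10 alone (245211_at), out of 22810 probe sets, of which 13513 named 1 gene each and 13356 different genes in all. The genes were picked with values of these arrays in view: KEU for its place among the genes that set the arrays furthest apart, and SEC10 for its low signal on some silwet arrays. The patterns that led to the choice are therefore given as descriptions, with no test.

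Secretory vesicles are held at the plasma membrane by the exocyst, a tethering complex of which SEC10 is a core subunit, before SNARE proteins fuse the membranes. KEU (keule) is a Sec1/Munc18 (SM) protein. Proteins of this class bind syntaxins and help SNARE complexes form, and KEU does so with the syntaxin KNOLLE at the cell plate of dividing plant cells. Salicylic acid (SA) is a hormone of plant defence, and in Arabidopsis its signalling through NPR1 is known to raise genes of the secretory pathway.

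Total RNA of 9 samples given SA at 0.30 mM together with 0.02% silwet was set against that of 9 samples treated with 0.02% silwet alone. Silwet is a surfactant that wets leaf surfaces, and both treatments contain it. All samples are Van-0, and the labels used here give no genotype beyond the accession and no tissue, age or time after treatment. Each treatment holds the Rep numbers 1, 2 and 3 on 3 arrays each, and runs of 3 consecutive title numbers, called title sets 1, 2 and 3 here, hold each Rep number of each treatment on 1 array. What the title sets and the Rep numbers mark is not in the labels, and neither is whether samples came from separate plants, so a p-value here measures the spread between these samples alone, and that spread may be technical.

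Values are MAS5 signals, an Affymetrix intensity on a linear scale that is set to a trimmed mean of 100 on each array. The median signal of an array lay between 24.1 and 35.2 on SA arrays and between 23.3 and 36.6 on silwet arrays. The ratio of the GAPDH control's 5′ to its 3′ signal, which is low where RNA is degraded or poorly copied, was 0.767 to 1.26 on SA arrays. On silwet arrays it was 0.225 in set 3 Rep 1 and 0.465 in set 2 Rep 1, and 0.938 to 1.29 on the other silwet arrays. The same ratio of the actin control was low on all arrays, 0.139 to 0.407 with SA and 0.0471 to 0.355 with silwet. That of the ubiquitin control was 0.688 to 0.952 with SA and 0.502 to 0.896 with silwet. The silwet array of set 3 Rep 1 was the lowest in both. A marker of leaf photosynthesis, the Rubisco activase gene RCA, had signals of 2312 to 4059 on SA arrays and 1429 to 3755 on silwet arrays. It was the only 1 of 11 such markers with a probe set naming 1 gene. Of 5 root markers 2 had such a probe set. The root hair expansin gene EXPA18 had signals of 11.9 to 25.5 on SA arrays and 8.60 to 20.8 on silwet arrays. The related gene EXPA7 had 2.02 to 13.3 on SA arrays and 1.58 to 21.1 on silwet arrays and lay below the filter on dim probe sets.

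KEU signal differed widely between title sets within the SA arrays. In title set 1 it was 226, 312.4 and 256 on the SA arrays of Rep 1, 2 and 3. In title set 2 it was 12.1, 29.2 and 11.8 on the SA arrays, and in title set 3 it was 66.1, 119.9 and 39.2. The SA arrays of set 1 thus lay above all other SA arrays, and those of set 2 lay below all other SA arrays. Of all tested probe sets, 14.5% had the SA arrays of set 1 above the other 6 SA arrays, and 10.0% had those of set 2 below. The SA arrays of set 2 also had the lowest median signals over all probe sets among the SA arrays. These were 26.1, 24.1 and 29.2 for Rep 1, 2 and 3, and 29.4 to 35.2 on the other 6. The part of this in the KEU values was not tested. On the silwet arrays the KEU signal was 23.6, 141.7 and 237 in set 1, 27.2, 101 and 129.6 in set 2, and 117, 47.4 and 19.1 in set 3. These ranges overlapped between all title sets.

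**Figure D1:**
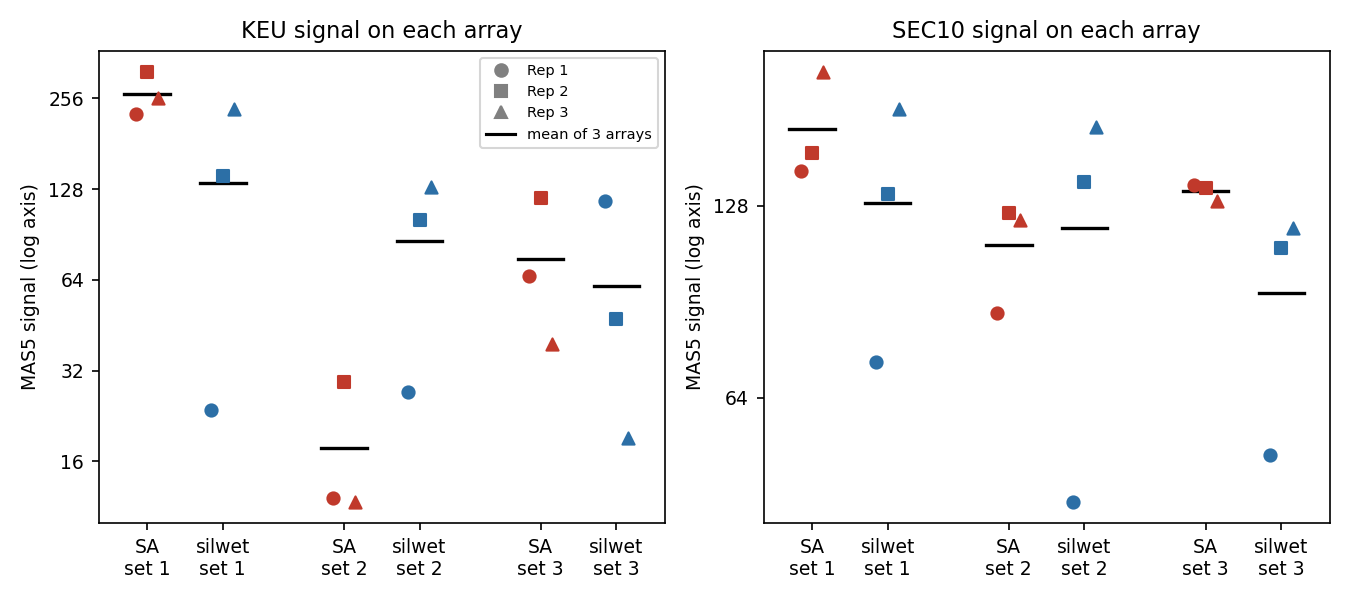
MAS5 signal (log axis) of KEU (left) and SEC10 (right) on each of the 18 arrays, by title set with SA left of silwet; the shape of a point is its Rep number and the line is the mean of 3 arrays. KEU ran from 11.8 on an SA array of set 2 to 312.4 on an SA array of set 1, whereas the lowest SEC10 signals, 43.9 to 72.8, were those of the 3 silwet arrays of Rep 1.

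Ordered by mean, KEU signal was 265 ± 43.6 (SD, n = 3) on SA arrays of set 1, 134 ± 107 on silwet arrays of set 1 and 85.8 ± 52.8 on silwet arrays of set 2. Below these came SA arrays of set 3 with 75.1 ± 41.1, silwet arrays of set 3 with 61.1 ± 50.4 and SA arrays of set 2 with 17.7 ± 10.0 (SD, n = 3 each). In each of the 5 neighbouring pairs of this order the single arrays overlapped. The ends of the order did not: the lowest SA array of set 1 had 226 and the highest SA array of set 2 had 29.2. In RNA of whole samples, fewer cells of a type and less RNA per cell cannot be told apart.

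Over all arrays KEU did not differ between the treatments beyond the spread between arrays. The mean signal was 119 ± 116 on SA arrays and 93.6 ± 72.1 on silwet arrays (SD, n = 9 each). On the log2(signal + 2) scale the difference of SA minus silwet was -0.02 ± 0.65 (SE), with a 95% interval of -1.37 to 1.33. Its adjusted p by limma was 0.9999, and an exact permutation test over the 18 arrays gave a two-sided p of 0.980. With treatments permuted within Rep numbers, an alternative added after seeing the data, the exact permutation p was 0.9825. Benjamini-Hochberg adjustment over 6 such tests, 3 for each gene, left both at 0.9825. In this comparison limma called 0 of the 15922 probe sets tested (0%), with 0.522 as the smallest adjusted p. An unadjusted p below 0.05 was found for 242, fewer than chance alone gives. The fit of treatment alone left the differences between title sets in its spread, and with the title set as a block 1 probe set passed. The interval of KEU includes differences of more than 2-fold either way. KEU was chosen for its wide spread over the arrays, and the test measures the difference against that spread. Only a large difference could therefore have passed. The SE of the difference was 0.66 with the Rep number as a block, 0.54 with the title set and 0.52 with the pairs of both.

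That small difference is the mean of unlike ones. SA and silwet arrays that share a title set and a Rep number form 9 pairs. In title set 1 the log2 difference of SA minus silwet was 3.16, 1.13 and 0.12 in the pairs of Rep 1, 2 and 3. In title set 2 it was -1.06, -1.72 and -3.26, and in title set 3 it was -0.80, 1.30 and 0.97. All 3 pairs of set 1 were thus higher with SA and all 3 of set 2 lower. Single arrays of the treatments still overlapped in both sets: in set 1 the lowest SA array had 226 and the highest silwet array 237, and in set 2 the highest SA array had 29.2 and the lowest silwet array 27.2.

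The fitted difference was 1.47 ± 0.76 (SE) in set 1, -2.01 ± 0.76 in set 2 and 0.49 ± 0.76 in set 3. Since KEU was chosen for its pattern over the arrays, these values are a description, with no test and no interval. Single arrays weigh on them: without the silwet array of set 1 Rep 1 the difference in set 1 was 0.52, and without the silwet array of set 3 Rep 3 that in set 3 was -0.13. Title set 1 exceeded the mean of sets 2 and 3 by 1.78 ± 0.46 (SE) over both treatments, a 3.43-fold difference, and set 2 minus set 3 was -0.69 ± 0.54. The difference of set 2 from set 3 varied with the Rep numbers: it was 0.04 without the arrays of Rep 1, -1.30 without those of Rep 3, and -1.002 to -0.36 with single arrays left out. Over all probe sets 28.0% passed between set 1 and the other sets and 0.0251% between sets 2 and 3.

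**Figure D2:**
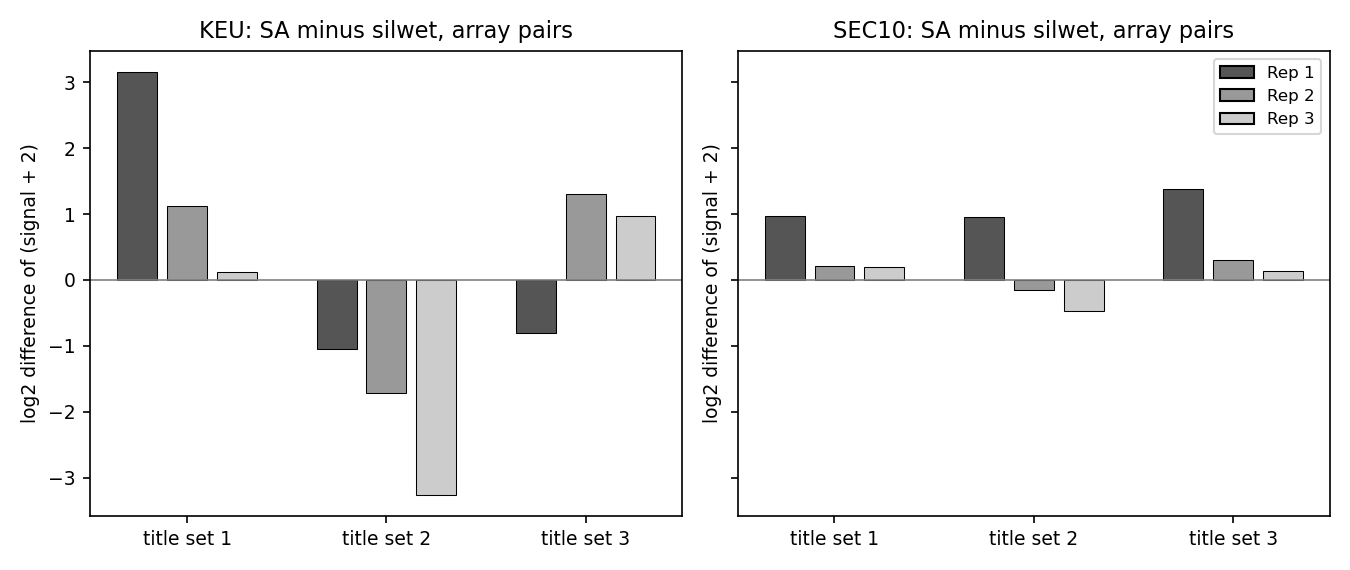
Log2 difference of SA minus silwet in signal + 2 for KEU (left) and SEC10 (right) in the 9 pairs of arrays that share a title set and a Rep number (shade of the bar). KEU differences ran from -3.26 in set 2 to 3.16 in set 1, and the 3 largest SEC10 differences, 0.95 to 1.38, were the pairs of Rep 1.

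Among all tested probe sets KEU was one of the most variable. The SD of its log2 signal over the 18 arrays was 1.49, against a median of 0.46, and 99.4% of probe sets had a lower SD. Treatment held 0.00391% of the KEU variance, Rep number 6.74% and title set 37.5%. The 6 groups of treatment and title set held 63.3%, against 41.1% for the median probe set. As KEU acts at the cell plate, the marker of dividing cells AUR1, an Aurora kinase gene, was read beside it. AUR1 signal was 40.2 ± 4.80 in set 1, 44.7 ± 9.91 in set 2 and 58.7 ± 10.8 in set 3 (SD, n = 6), so it was lowest in the set where KEU was highest. AUR1 ran from 33.6 to 70.8 on SA arrays and from 38.0 to 66.6 on silwet arrays and was the only 1 of 11 such markers measured, and the part of dividing cells in the KEU pattern was not tested.

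SEC10 varied less than KEU. On SA arrays its signal was 145, 155 and 208 in set 1, 86.9, 125 and 121.7 in set 2, and 138, 137 and 130.2 in set 3, for Rep 1, 2 and 3. On silwet arrays it was 72.8, 134 and 182 in set 1, 43.9, 139.6 and 170.5 in set 2, and 52.0, 109.8 and 118 in set 3. The 3 silwet arrays of Rep 1 were the lowest of all 18 arrays, and no other array fell below 86.9. On SA arrays, as in KEU, all 3 of set 1 lay above the other 6 (14.5% of all tested probe sets) and all 3 of set 2 lay below the other 6 (10.0%). A near-identical tandem copy of SEC10 has been described in the accession Columbia, and a probe set cannot tell such copies apart.

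By Rep number, SEC10 signal averaged 123 ± 31.8 on SA arrays of Rep 1 and 56.2 ± 14.9 on silwet arrays of Rep 1 (SD, n = 3 each). For Rep 2 and 3 together it averaged 146 ± 32.4 on SA arrays and 142 ± 28.6 on silwet arrays (SD, n = 6 each). The silwet arrays of Rep 1 lay below the other 6 silwet arrays without overlap, as did those of 10.6% of all tested probe sets. For the SA arrays of Rep 1 such a gap was absent in SEC10, and 1.18% of tested probe sets had it. The 6 groups of treatment and Rep number held 77.8% of the SEC10 variance, against 28.8% for the median probe set, and those of treatment and title set 27.1%. The SD of its log2 signal was 0.58, and 67.3% of probe sets had a lower SD.

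Ordered by title set and treatment, SEC10 signal was 169 ± 33.6 on SA arrays of set 1, 134.9 ± 4.16 on SA arrays of set 3, 129.5 ± 54.7 on silwet arrays of set 1 and 118 ± 66.0 on silwet arrays of set 2. SA arrays of set 2 followed with 111 ± 21.1 and silwet arrays of set 3 with 93.3 ± 35.99 (SD, n = 3 each). In this order the SA arrays of set 1 and of set 3 did not overlap, and the other neighbours did. The log2 difference of set 1 from the mean of sets 2 and 3 was 0.40 ± 0.27 (SE), and that of set 2 from set 3 was -0.04 ± 0.31.

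Over all arrays SEC10 signal averaged 138 ± 32.2 with SA and 114 ± 49.2 with silwet (SD, n = 9 each), and 7 of the 9 pairs were higher with SA. The log2 difference of SA minus silwet was 0.39 ± 0.25 (SE). Its SE was 0.195 with the Rep number as a block and 0.186 with the pairs of title set and Rep number as a block. No p or interval is given, since SEC10 was chosen for its low signal on silwet arrays that enter this difference. In title sets 1, 2 and 3 it was 0.46, 0.11 and 0.61 (SE 0.43 each, or 0.30 with the Rep number as a block). Without the silwet array of Rep 1 in the same set it was 0.10 in set 1, -0.48 in set 2 and 0.24 in set 3. Over all probe sets 27 (0.170%) passed the limma test that the treatment difference varied between title sets, or 184 with the Rep number as a block.

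The positive difference of SEC10 came with the arrays of Rep 1. The pairs of Rep 1 differed by 0.98, 0.95 and 1.38 in sets 1, 2 and 3, those of Rep 2 by 0.21, -0.16 and 0.31, and those of Rep 3 by 0.19, -0.48 and 0.14. The mean difference was 1.10 in Rep 1 alone, 0.12 in Rep 2 alone and -0.05 in Rep 3 alone. Without the 3 silwet arrays of Rep 1 the difference over the remaining arrays was -0.05.

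The same 3 silwet arrays lay below the other silwet arrays in a control ratio and in median signal. The ratio of the GAPDH control's middle to its 3′ signal was 1.499 to 2.02 on SA arrays, 0.930 to 1.52 on silwet arrays of Rep 1 and 1.67 to 1.94 on the other silwet arrays. Their median signal over all probe sets was 23.3 to 28.0, below the 30.4 to 36.6 of the other silwet arrays. In the GAPDH 5′ to 3′ ratio the silwet array of set 1 Rep 1 had 0.989, within the range of the other silwet arrays. Without the 2 silwet arrays of lowest GAPDH 5′ to 3′ ratio, set 2 Rep 1 and set 3 Rep 1, the SEC10 difference of SA minus silwet was 0.08. The part of RNA quality in the SEC10 values was not tested.

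**Figure D3:**
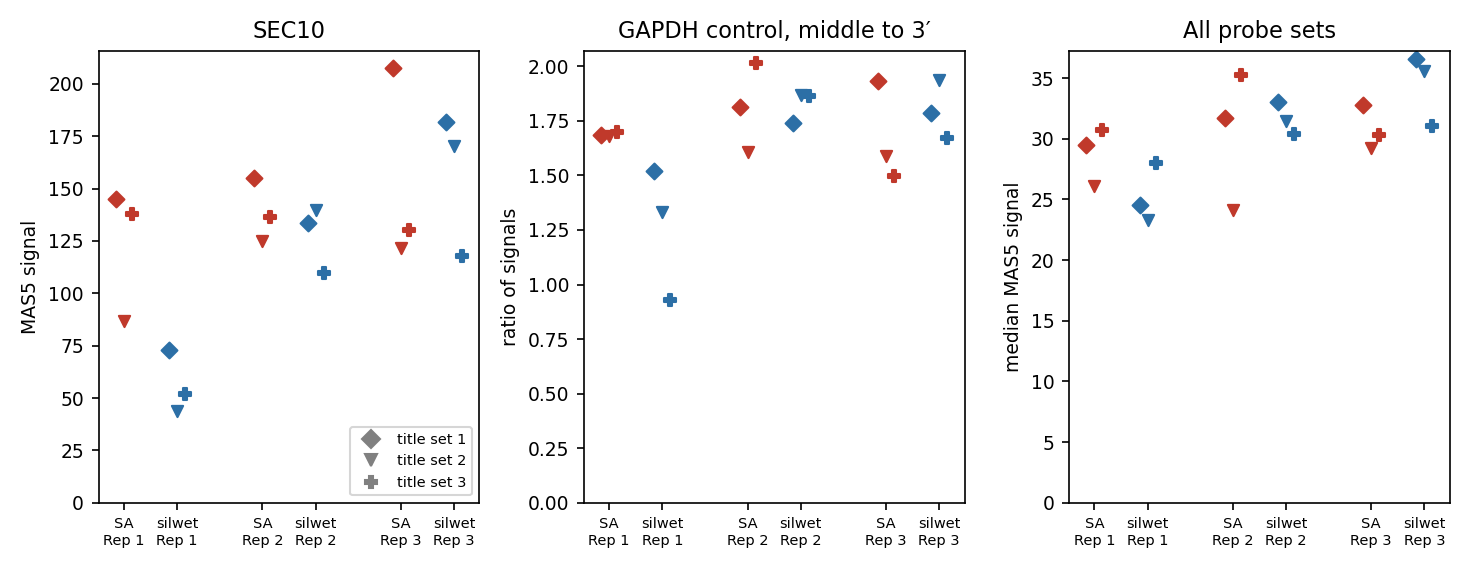
SEC10 MAS5 signal (left), middle to 3′ signal ratio of the GAPDH control (middle) and median MAS5 signal of all probe sets (right) on each array, by Rep number with SA left of silwet; shapes are title sets. The 3 silwet arrays of Rep 1 had SEC10 signals of 43.9 to 72.8 and GAPDH ratios of 0.930 to 1.52, and their median signals were 23.3 to 28.0.

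KEU and SEC10 were related to each other over the arrays, without being close neighbours. Pearson's r of their log2 signals was 0.51 (Spearman's rho 0.77) over 18 arrays, 0.81 (0.95) over the 9 SA arrays and 0.52 (0.62) over the 9 silwet arrays. All such values share the arrays and their scaling, and are given with no test. Among 8673 named genes ranked by their r with KEU over the 18 arrays, SEC10 stood at place 2024. In the ranking by r with SEC10, KEU stood at place 1598.

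The genes whose log2 signal followed KEU most closely were AT5G16880 (r = 0.98), AT2G38800 (0.97), the aldehyde dehydrogenase gene ALDH7B4 (0.96), AT3G26020 (0.96) and AT3G52240 (0.95). AT5G16880 had signals of 488 to 593 on SA arrays of set 1 and 65.8 to 222 on the other SA arrays. All 5 had their SA arrays of set 1 above the other SA arrays, which follows from their choice by correlation with KEU. The most opposite were the probe set that the platform calls DAL1 (r = -0.94), AT5G44170 (-0.93) and AT4G36660 (-0.92). The DAL1 probe set had signals of 165 to 208 on SA arrays of set 1 and 339 to 595 on the other SA arrays. KEU correlated above 0.9 with 97 of the 8673 genes and SEC10 with 38.

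The genes most like SEC10 were AT2G45670 (r = 0.96), AT3G59020 (0.95), AT2G20330 (0.95), AT5G42950 (0.94) and AT4G32760 (0.94), none of which has a name in the annotation used here. AT3G59020 had signals of 41.0 to 88.2 on silwet arrays of Rep 1 and 204 to 519 on the other silwet arrays. The most opposite were AT3G02900 (r = -0.95), AT1G52300 (-0.94) and AT2G25720 (-0.94). AT1G52300 had signals of 2685 to 3439 on silwet arrays of Rep 1 and 1325 to 2378 on the other silwet arrays. In all 8 of these genes the silwet arrays of Rep 1 did not overlap the other silwet arrays. These genes were picked by their correlation, so the gaps follow from the choice.

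The wider secretory pathway was read from 8 gene lists with 137 members, of which 35 had a probe set naming 1 gene and 32 besides KEU and SEC10 passed the filter on dim probe sets. The EXO70 subunits of the exocyst and the SNAREs of the plasma membrane and cell plate, KNOLLE among them, had no such probe set and were not analysed here. Over all arrays 21 of the 32 had a higher mean with SA and 11 a lower one, whereas 46.5% of all probe sets were higher. Of the 32, 0 passed limma in either direction (0% of all probe sets passed). Their median log2 difference was 0.06, against -0.02 for all probe sets, and none had an unadjusted p under 0.05. The smallest unadjusted p by limma among the 32 was 0.0725, for the exocyst gene EXO84B. Its log2 difference was 0.36 ± 0.19 (SE), with an adjusted p of 0.9999. Within the list of SNAREs of other membranes the smallest p was that of YKT61, an R-SNARE gene (median signal 558 with SA and 478 with silwet). In the list of Rab GTPases it was that of RABF1, a gene of an endosomal Rab, with a log2 difference of 0.08 ± 0.13 (SE). RABF1 had a mean of 406 with SA and 385 with silwet, whereas its median was 371 with SA and 382 with silwet. In the COPII list the smallest p was that of AT3G23660 (64.4 with SA and 55.8 with silwet in the median).

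The genes nearest to KEU and SEC10 in role are the other SM proteins and exocyst core subunits, 9 of them measured. They are the SM genes SEC1B, a close relative of KEU, and SLY1, which acts in traffic between the endoplasmic reticulum (ER) and the Golgi, and the exocyst genes SEC5A, SEC5B, SEC6, SEC15A, SEC15B and EXO84B. AT1G10180, entered in the exocyst list by its identifier, has no name in the annotation used here. In title set 1 all 9 had a higher mean log2 signal with SA, with a median difference of 0.69, whereas 49.1% of all probe sets were higher. In title set 2 SA was lower in 8 of 9, with a median difference of -0.88, whereas 51.5% of all probe sets were lower. The counts of sets 1 and 2 were the same after quantile normalization and after median centring. They moved with 1 silwet array each, in an alternative added after seeing the data. Without the silwet array of set 1 Rep 1, SA was higher in 6 of 9 in set 1 (median 0.07), and 40.3% of all probe sets were higher. Without the silwet array of set 2 Rep 1, SA was lower in 9 of 9 in set 2 (median -1.40), and 54.0% of all probe sets were lower. In title set 3 SA was higher in 8 of 9 (median 0.30), against 54.1% of all probe sets, and in 7 after quantile normalization and 6 after median centring.

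With all arrays, none of these 9 genes passed limma in any single title set. The share of all probe sets that passed was 0.810% in set 1, 0% in set 2 and 0% in set 3, and with the Rep number as a block 280 probe sets passed in set 1, against 129 without it. Without the arrays of Rep 1, 19 probe sets passed in set 1, 613 in set 2 and 0 in set 3. Whether any of the 9 genes was among these was not read. SEC6 had a mean signal of 143 with SA and 104 with silwet in set 1, 20.3 with SA and 99.9 with silwet in set 2, and 106 with SA and 63.7 with silwet in set 3. Its log2 difference of SA minus silwet was 0.85, -1.90 and 0.76 (SE 0.71 each) in sets 1, 2 and 3, with adjusted p of 0.721, 0.450 and 0.991. SLY1 had a mean signal of 115 with SA and 73.1 with silwet in set 1, and 22.4 with SA and 64.1 with silwet in set 2. In set 2 the difference was 0.11 ± 0.43 (SE) for SEC10 and 0.18 ± 0.32 for EXO84B, and negative for all other SM and exocyst genes, KEU included. Both positive values rested on 1 array: without the silwet array of set 2 Rep 1, SEC10 had -0.48 and EXO84B -0.29.

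**Figure D4:**
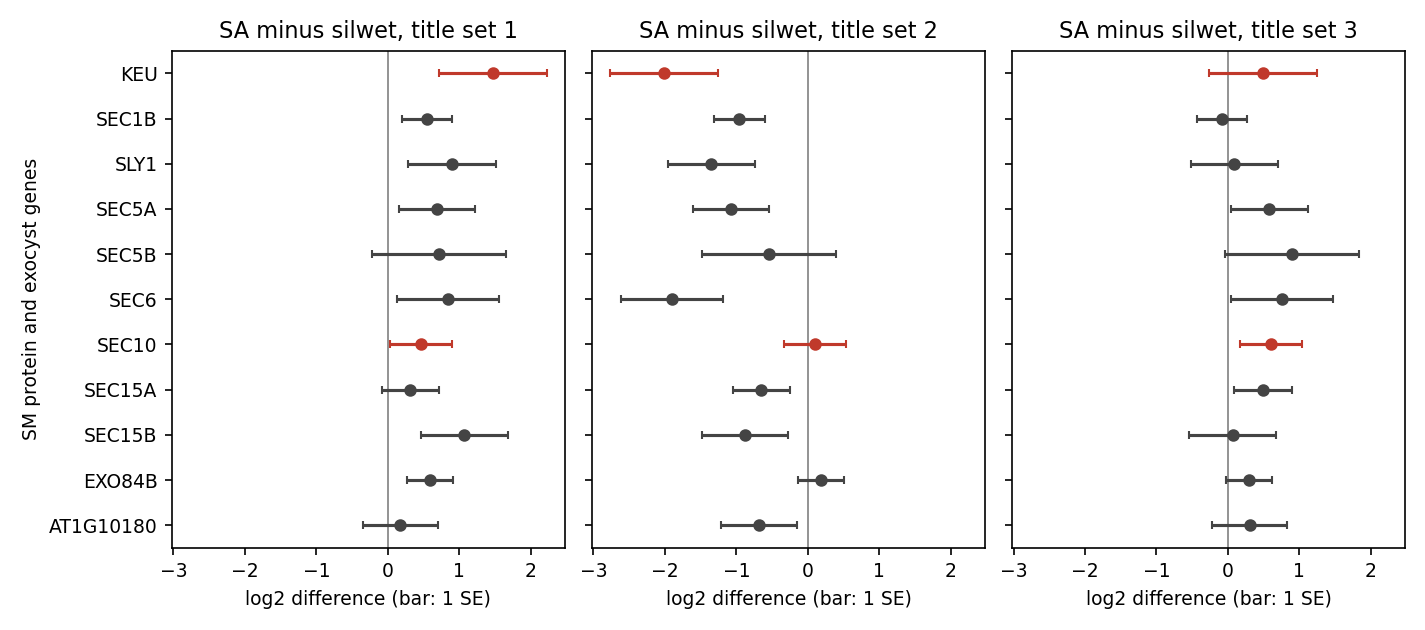
Log2 difference of SA minus silwet (points, with bars of 1 SE from the fit of 6 groups) of KEU, SEC10 and the 9 other SM protein and exocyst genes in title sets 1, 2 and 3. All 11 differences were positive in set 1, and all except those of SEC10 and EXO84B were negative in set 2. Without the silwet array of Rep 1 of the same set, which is not drawn, SEC10 had -0.48 and EXO84B -0.29 in set 2, and 6 of the 9 other genes were positive in set 1.

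Over both treatments, 27 of the 32 secretion genes were higher in set 1 than in the mean of sets 2 and 3. The count was 26 after quantile normalization and 24 after median centring, and 48.7% of all probe sets were higher. Of the 32, 5 passed limma as higher (15.6%), against 12.9% of all probe sets, and 0 passed as lower, against 15.1%. The share that passed was thus near that of all probe sets. SEC1B had signals of 58.6 ± 21.3 in set 1, 24.4 ± 12.2 in set 2 and 24.7 ± 1.83 in set 3 (SD, n = 6), a log2 difference of 1.15 ± 0.22 (SE; adjusted p = 0.000798). Without the arrays of Rep 3 it did not pass (adjusted p = 0.0522). SEC15B had 89.2 ± 38.6 in set 1, 35.0 ± 25.2 in set 2 and 40.9 ± 12.0 in set 3, a log2 difference of 1.11 ± 0.37 (adjusted p = 0.0334). The call of SEC15B was lost without any 1 of 7 arrays (all 3 SA arrays of set 1, SA set 2 Rep 1, SA set 3 Rep 3 and silwet set 1 Rep 2 and Rep 3), with adjusted p of up to 0.113. It was also lost without all arrays of Rep 2 (adjusted p = 0.226) or of Rep 3 (0.287).

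The other 3 that passed stand in the list of the ER translocon, the channel through which proteins enter the secretory pathway, and have no name in the annotation used here. AT3G60540 had signals of 366 ± 113 in set 1, 269.6 ± 86.2 in set 2 and 161 ± 51.1 in set 3 (SD, n = 6), a log2 difference of 0.80 ± 0.20 (SE; adjusted p = 0.00597). Without the arrays of Rep 2 it did not pass (adjusted p = 0.0554). AT2G34250 had a log2 difference of 0.40 ± 0.13 (adjusted p = 0.0281) and did not pass in 6 of 31 alternatives. It did not pass after median centring (adjusted p = 0.126) or with any 1 Rep number left out (up to 0.182). The same held without the SA array of set 1 Rep 2 or without the silwet array of set 1 Rep 2. AT1G29310 had 0.42 ± 0.15 (adjusted p = 0.0412) and did not pass in 18 of 31 alternatives. Of the 32, 5 passed with all arrays and 2 without the SA array or the silwet array of set 1 Rep 2, and 3 passed without the SA array of set 1 Rep 3 or of set 2 Rep 1. Median centring of the arrays left 3, and it moved the median difference of all probe sets to -0.11 in this comparison and to 0.15 for SA minus silwet in set 2.

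The array pattern of KEU was read against that of the other secretion genes, as a description. Pearson's r with KEU over the 18 arrays was 0.49 to 0.94 for the 9 SM and exocyst genes, with a median of 0.83, and was highest for SEC6 (0.94), SEC15B (0.93) and SEC1B (0.87). The J-domain gene of the ER translocon ERDJ2B had 0.93. For the 11 genes of the COPII coat, which buds vesicles from the ER, r with KEU had a median of 0.36 and ran from -0.57 to 0.70. The median over all 8673 named genes was 0.00192. The SA arrays of set 2 lay below all other SA arrays in 7 of the 32 genes (21.9%), 5 of them among the 9 SM and exocyst genes (SEC1B, SEC5A, SEC6, SEC15A and SEC15B), against 10.0% of all probe sets. The SA arrays of set 1 lay above all other SA arrays in 8 of the 32 (25.0%), against 14.5%. The SA arrays of set 2 also had the lowest median signals over all probe sets among the SA arrays, and the part of this was not tested.

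The same was done for SEC10. Its r over the 18 arrays had a median of 0.77 (-0.22 to 0.91) for the 11 COPII genes and 0.58 (0.44 to 0.86) for the 9 SM and exocyst genes, against a median of 0.0761 over all named genes. The highest values were those of SEC31B, a subunit of the outer COPII coat, and of AT1G05520, both 0.91. The silwet arrays of Rep 1 lay below the other 6 silwet arrays in 9 of the 32 secretion genes (28.1%), against 10.6% of all probe sets. These were SEC1B, EXO84B, SEC31B and 6 COPII-list loci without a name, and SEC31B had 18.9 to 63.8 on silwet arrays of Rep 1 and 94.2 to 173 on the other silwet arrays. In AT3G48570 and AT5G59840 they lay above the others instead, which is 6.25% of the 32, against 6.05% of all probe sets. These 3 arrays also had the lowest SEC10 signals, and 2 of them the lowest GAPDH 5′ to 3′ ratios. Their part in these correlations was not tested.

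**Figure D5:**
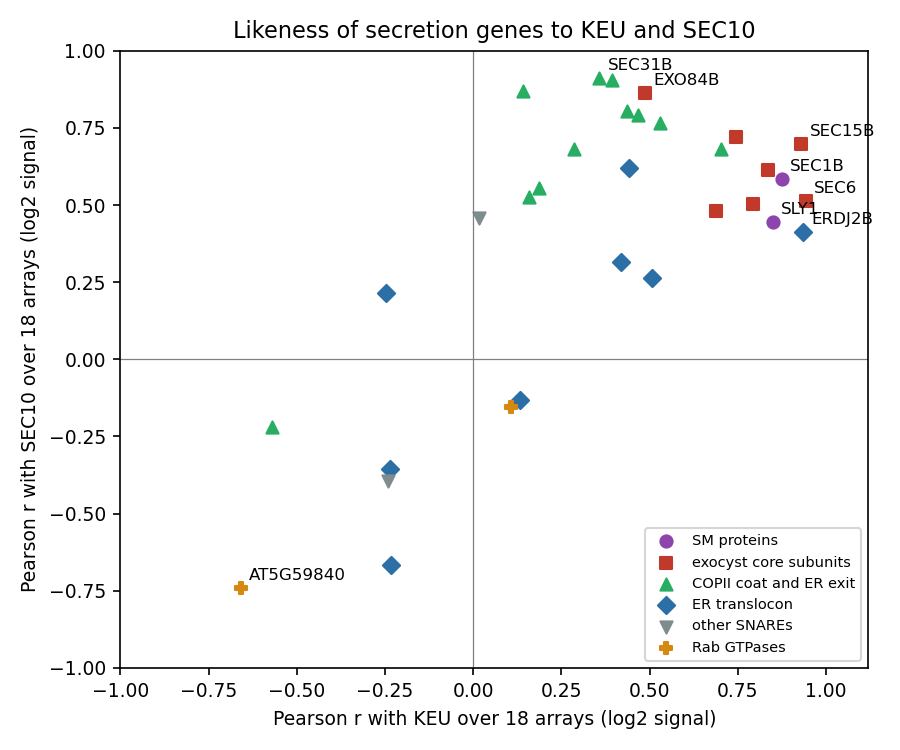
Pearson's r of log2 signal over the 18 arrays with KEU (horizontal axis) and with SEC10 (vertical axis) for the 32 other secretion genes; colours and shapes give the list. The 9 SM protein and exocyst genes had r of 0.49 to 0.94 with KEU, and COPII genes such as SEC31B (0.91) stood high on the SEC10 axis.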

How the data were processed

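Each of the 18 ATH1 arrays carried biotin-labelled total RNA of 1 Van-0 sample, per the labels. The deposited values are intensities made by the authors with MAS5, per the submitters' processing notes, whose version is not given in the sources used here. On each array the mean of these intensities without the lowest and highest 2% was 100, so a change common to most transcripts stays hidden, and low signals are noisy.

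The intensities were analysed as log2(signal + 2), which understates changes of low signals. After leaving out 64 control probe sets and the lowest 30% by mean, 15922 were tested with limma 3.58.1 in R 4.3.3 (intensity trend, two-sided, Benjamini-Hochberg over all tested, threshold 0.05). SA and silwet were compared over 9 arrays each, and 1 fit of 6 groups (treatment by title set, 3 arrays each) gave the comparisons within and between title sets, with the F-test of their interaction. The fits were tested on simulated data. The number of arrays limits the precision. No 2 arrays were alike, the smallest median absolute log2 difference being 0.23.

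Rep numbers were taken to pair the arrays, because the mean deviations of SA and silwet arrays from their treatment means correlated at 0.35, 0.42 and 0.32 in Rep 1, 2 and 3. For the 9 pairs of the same title set and Rep number this was -0.29 to 0.72. The reported fits hold no block, and blocked values stand where they move a result.

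Genes were named by the platform annotation and the gene table of the TAIR10.1 assembly (13513 probe sets with 1 gene, 503 with several, 8794 unnamed here). No coordinates or sequences are given, as no build is named for the arrays. KEU, SEC10, the title sets and the gene lists were chosen with earlier results of these data known. Loci without a name in these tables entered lists by identifier. Genes named by rule were KEU, SEC10, list members that passed (or the one with the smallest p) and the 5 most and 3 least correlated genes. SLY1, SEC6, EXO84B, SEC31B, ERDJ2B and any other list member named lie outside this rule and were chosen with their values in view. Alternatives covered the pseudocount, the filter, scaling, blocks, array weights and arrays, Rep numbers or title sets left out.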

Additional observations from a re-analysis of the deposited data

Results flagged for a closer look

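The KEU difference of SA minus silwet in title set 1 exceeded that in title set 2 by 3.48 on the log2 scale, all 3 array pairs of set 1 being higher with SA and all 3 of set 2 lower. KEU was chosen for its pattern over these arrays, so this is a description, and the difference was not tested. Without the silwet array of set 1 Rep 1 the difference in set 1 was 0.52.

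In 54 genes the 9 arrays of each treatment were searched for an array far from the others, 108 groups in all, of which chance gives about 5.4 (1 in 20). The search found 2, both on the SA array of set 2 Rep 2. AT2G30050 of the COPII list had a signal of 306 there and 155 to 212 on the other SA arrays. AT3G20920 of the ER translocon list had 244 there and 199 to 212 on the other SA arrays.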

How the results depend on the processing

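KEU passed the test of SA against silwet under none of the alternatives run. The KEU difference of -0.02 turned to 0.051 with a pseudocount of 16, to 0.98 without title set 2, and to 0.43 in Rep 1 alone and 0.24 in Rep 2 alone, which were added after seeing the data. With array weights it was -0.84. It ran from -0.29 to 0.34 when arrays or Rep numbers were left out. The SEC10 difference of 0.39 turned to -0.051 in Rep 3 alone and to -0.048 without the silwet arrays of Rep 1, both added after seeing the data. In title set 2 it ran from -0.48, without the silwet array of Rep 1, to 0.47, and was -0.48 without the 2 silwet arrays of lowest GAPDH ratio.

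Counts of probe sets that passed moved more. SA against silwet had 0, and 1 with the title set as a block. Title set 1 against sets 2 and 3 had 4452, with 8112 under array weights and 1754 to 5538 with arrays or Rep numbers left out. Set 2 against set 3 had 4, with 8 at a pseudocount of 1 and at a filter of 50%, 1 at a pseudocount of 16, after median centring and with no intensity trend, 9 after quantile normalization and with the Rep block, 87 under array weights, 0 without the 2 silwet arrays of lowest GAPDH ratio, and 0 to 15 with arrays left out. SA against silwet in set 1 had 129, with 78 after median centring, 280 with the Rep block, 2464 under array weights, 324 without the 2 silwet arrays, and 1 to 234 with arrays or Rep numbers left out. In set 2 it had 0, with 1360 under array weights and 0 to 613 with arrays or Rep numbers left out, the highest without Rep 1. In set 3 it had 0, with 43 under array weights. The interaction had 27, with 56 after quantile normalization, 8 after median centring, 184 with the Rep block, 3956 under array weights, 437 without the 2 silwet arrays and 0 to 354 with arrays or Rep numbers left out, the highest without silwet set 2 Rep 1. The 5 secretion genes higher in set 1 were 3 after median centring, 12 under array weights and 1 to 7 with arrays or Rep numbers left out, and 5 with the Rep block. The Rep block gave 5375 for set 1 against sets 2 and 3, and moved no count other than those given here by over 1.5 times. The array weights of the 6-group fit stopped before they converged, and the causes of these changes were not tested.

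With 3 arrays per treatment and title set, and groups whose meaning the labels do not give, the comparisons within sets are imprecise.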

Other observations

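The COPII list, whose proteins bud vesicles from the ER, had 10 of its 11 tested genes higher with SA in title set 3. The median log2 difference was 0.47, and 54.1% of all probe sets were higher. The count was 9 after quantile normalization or median centring. None passed, and 0% of all probe sets did. The silwet arrays here include set 3 Rep 1, whose GAPDH 5′ to 3′ ratio of 0.225 was the lowest. The COPII count without it was not taken. SEC31B had 60.04 to 149 on SA arrays and 18.9 to 173 on silwet arrays, with a median of 98.2 with SA and 98.5 with silwet. In set 2 the COPII median was -0.07, and it turned to 0.03 after quantile normalization and 0.09 after median centring.

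A few secretion genes ran against SEC10. AT3G48570 of the ER translocon list had 561 to 679 on silwet arrays of Rep 1 and 242 to 473 on the other silwet arrays. This gene has 2 probe sets, and the values are those of the one with the higher mean signal. The other is not given here. AT5G59840 of the Rab list had 67.2 to 78.3 on silwet arrays of Rep 1 and 40.7 to 66.3 on the other silwet arrays, and its r with SEC10 was -0.74. Both had all silwet arrays of Rep 1 above the other silwet arrays. Outside the secretion lists, the guard cell gene FMA had 26.4 to 57.2 on SA arrays and 29.98 to 61.4 on silwet arrays. It did not run against SEC10, its r being 0.39.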
